A study of Mus musculus with 16 samples.

Results

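Of the 13113 ATRX-dependent heterochromatin nanodomains (HNDs) in the deposited list, 2280 were single-copy regions, which is 17.4% of the list. They lie on 16 autosomes, chromosomes 2 to 7, 9, 10 and 12 to 19, and were chosen by sequence alone. A region was taken when it was 200 bp or wider and when every 50-base word starting inside it occurred once in the mm9 assembly, counting exact matches on both strands. These chromosomes carry 9176 listed regions, 7234 of them 200 bp or wider, and 31.5% of the latter (95% Wilson interval 30.5 to 32.6%) met the rule. The remaining 4954 regions of that width, with at least 1 word that occurred more than once, are called the other regions.

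The list comes from H3K9me3 ChIP-seq in mouse embryonic stem cells (ESCs), in which DNA bound by an antibody is sequenced and mapped. The wild-type (WT) line wt26 was compared with *Atrx* knock-out (KO) cells, for which the series names 2 lines, KO1-40 and KO1-45. All were grown in medium with FCS and LIF and received no further treatment. H3K9me3, histone H3, IgG and input were sequenced with 2 WT and 2 KO libraries each, 16 libraries in all, and no label ties a KO library to one of these lines. The authors kept H3K9me3 peaks present in WT and absent in KO and deposited them as 1 pooled list of chromosome, start and end. It gives no height or value per library, so there is no spread between replicates, the depth behind a single region is unknown here, and neither the presence of ATRX protein nor the loss in KO could be checked from it. Intervals given below cover counting error only, and the spread over the 16 chromosomes is given beside them.

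H3K9me3, the trimethylated lysine 9 of histone H3, marks silent chromatin and is bound by HP1 proteins. ATRX is a chromatin remodeller that works with the histone chaperone DAXX to deposit the histone variant H3.3, and in ESCs both are known for their part in silencing repeats such as telomeric sequence and endogenous retroviruses. Because repeats are the classical sites of this mark, regions whose sequence is found once in the genome, and the question whether they sit beside repeats, are of separate interest. The term single copy refers here to the assembly and to exact 50-base matches. Diverged copies, and copies that the assembly lacks, were not counted by the rule.

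The sequences below, read from mm9 on the plus strand, show what such regions look like, and all capitals in the first set mark CpG dinucleotides. The stretches lie in the widest region, in an intron of *AI854703*, in the second widest, in an intron of *Zic4*, and in the second and the third of the widest regions whose flanks held no repeated word, in introns of *Adamts1* and *Dse*.
AI854703, chr6:48580315-48580534: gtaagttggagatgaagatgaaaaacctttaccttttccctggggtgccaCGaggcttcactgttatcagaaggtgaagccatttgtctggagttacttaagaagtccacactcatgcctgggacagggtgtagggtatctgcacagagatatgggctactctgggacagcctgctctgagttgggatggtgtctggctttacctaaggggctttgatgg
Zic4, chr9:91281153-91281372: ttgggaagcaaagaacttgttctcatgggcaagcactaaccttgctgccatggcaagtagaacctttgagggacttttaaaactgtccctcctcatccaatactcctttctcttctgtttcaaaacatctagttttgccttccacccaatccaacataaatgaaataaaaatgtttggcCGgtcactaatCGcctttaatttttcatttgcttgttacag
Adamts1, chr16:85799511-85799730: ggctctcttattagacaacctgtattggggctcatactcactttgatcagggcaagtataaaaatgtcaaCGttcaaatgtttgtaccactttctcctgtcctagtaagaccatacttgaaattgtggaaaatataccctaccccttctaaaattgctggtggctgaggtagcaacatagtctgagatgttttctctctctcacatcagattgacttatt
Dse, chr10:33918678-33918897: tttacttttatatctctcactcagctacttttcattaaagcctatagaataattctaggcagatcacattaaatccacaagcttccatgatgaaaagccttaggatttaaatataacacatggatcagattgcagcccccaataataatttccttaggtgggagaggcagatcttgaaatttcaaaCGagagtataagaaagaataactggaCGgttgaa
In these 4 stretches of 220 bases there were 1, 2, 1 and 2 CpGs in turn.

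The next stretches come from regions over gene starts or with the most CpG, again with CpG in capitals. The first lies directly upstream of *Tex12* and the second directly upstream of *Tuba3b*. The third is the most CpG-rich of all single-copy regions, an intergenic one with the *AY036118* pseudogene as its nearest gene, and the last is an intergenic region whose nearest gene is *1700092C17Rik*.
Tex12, chr9:50369374-50369593: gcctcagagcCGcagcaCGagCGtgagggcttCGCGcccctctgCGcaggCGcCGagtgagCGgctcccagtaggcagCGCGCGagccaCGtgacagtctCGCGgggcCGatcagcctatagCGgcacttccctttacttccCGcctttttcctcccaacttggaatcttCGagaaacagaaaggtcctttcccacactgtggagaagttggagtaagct
Tuba3b, chr6:145564057-145564276: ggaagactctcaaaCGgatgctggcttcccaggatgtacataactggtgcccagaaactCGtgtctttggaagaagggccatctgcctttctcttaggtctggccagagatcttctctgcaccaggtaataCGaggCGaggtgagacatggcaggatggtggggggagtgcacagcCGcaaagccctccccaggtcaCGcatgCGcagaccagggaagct
AY036118 neighbour, chr17:39981024-39981243: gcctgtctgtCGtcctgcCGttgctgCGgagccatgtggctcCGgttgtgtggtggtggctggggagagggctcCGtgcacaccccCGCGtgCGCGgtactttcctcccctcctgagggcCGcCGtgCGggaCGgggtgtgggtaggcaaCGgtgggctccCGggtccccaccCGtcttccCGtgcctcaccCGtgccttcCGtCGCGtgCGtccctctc
1700092C17Rik neighbour, chr2:22600287-22600506: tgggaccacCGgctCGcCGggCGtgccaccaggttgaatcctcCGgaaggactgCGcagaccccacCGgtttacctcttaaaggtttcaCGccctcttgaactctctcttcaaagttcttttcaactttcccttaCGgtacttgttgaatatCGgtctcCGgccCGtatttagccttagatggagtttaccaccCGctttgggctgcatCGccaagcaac
They held 19, 7, 22 and 14 CpGs in 220 bases, far more than the stretches from the wide intronic regions.

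The last pair shows an edge where single-copy sequence ended and repeated sequence began, in the regions with the most repeated words beside them. Each has 60 bases of the region and 180 bases of its flank, and capitals mark bases inside 24-base words that occur at least 100 times in mm9. In the first, near *Gm11548*, the region is on the left and its right flank follows. In the second, whose nearest gene is *Gm5407*, the left flank comes first and the region follows.
Gm11548 neighbour, chr3:36407029-36407268: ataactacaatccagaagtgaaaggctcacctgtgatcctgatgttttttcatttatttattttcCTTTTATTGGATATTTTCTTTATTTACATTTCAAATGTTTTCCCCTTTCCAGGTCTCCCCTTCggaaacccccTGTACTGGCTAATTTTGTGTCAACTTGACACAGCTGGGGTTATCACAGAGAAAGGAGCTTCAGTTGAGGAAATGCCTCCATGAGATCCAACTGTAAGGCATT
Gm5407 neighbour, chr16:49454018-49454257: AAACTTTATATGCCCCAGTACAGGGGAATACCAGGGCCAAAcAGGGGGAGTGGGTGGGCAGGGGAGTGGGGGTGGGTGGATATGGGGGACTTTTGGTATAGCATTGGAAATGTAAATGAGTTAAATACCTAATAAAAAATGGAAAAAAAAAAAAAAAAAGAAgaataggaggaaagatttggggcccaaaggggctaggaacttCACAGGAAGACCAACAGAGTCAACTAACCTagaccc
Of the 180 flank bases shown, 165 and 161 lay in such words, and of the 60 bases inside the region 0 and 30. In the second, capitals also stand inside the region, which can hold 24-base words of many copies as long as each 50-base word occurs once.

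Single-copy regions were found on all 16 chromosomes, in unequal shares. They made up 31.7% ± 3.79 (SD over 16 chromosomes) of the regions of 200 bp or more, from 26.3% on chromosome 3 (22.8 to 30.1%) to 38.9% on chromosome 14 (35.1 to 42.9%), whose intervals do not overlap. Per sequenced megabase there were 1.18 ± 0.249 single-copy regions, fewest on chromosome 3 (0.927) and most on chromosome 14 (1.92). The rule's limits can be read from the regions next to them. On these chromosomes, 4 single-copy regions were exactly 200 bp wide, and 688 regions under that width held no repeated word and were left out for their width alone. Among the other regions, the highest share of words occurring once was 99.96%, 200 regions had at least 99% and 1179 at least 90%. The median was 65.3%, and 531 had no word that occurred once.

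**Figure D1:**
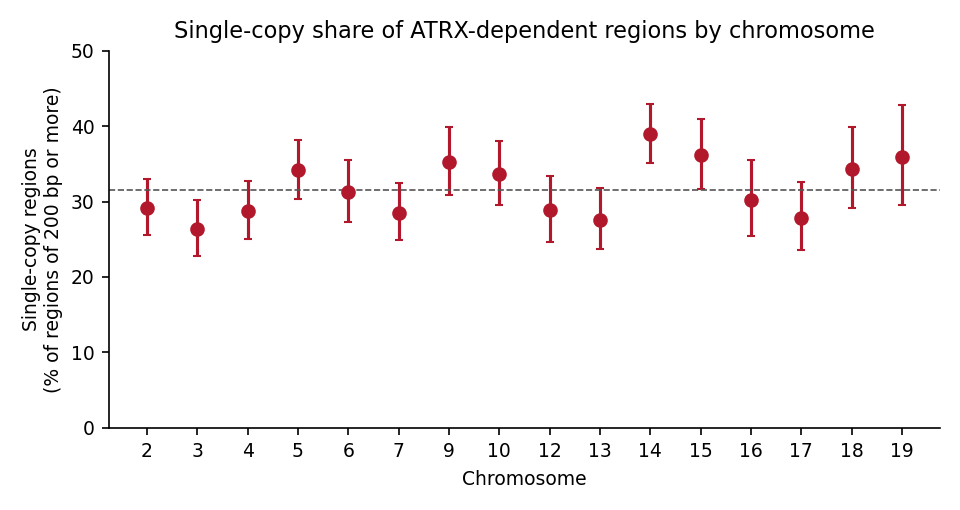
Single-copy regions as a percentage of listed regions of 200 bp or more on each of the 16 chromosomes (points, with 95% Wilson intervals); the dashed line is the share over all of them, 31.5%. Shares lay between 26.3% on chromosome 3 and 38.9% on chromosome 14.

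The median width of single-copy regions was 507.5 bp (exact 95% interval 490 to 524), with quartiles of 331.75 and 786.5 bp, and 371 of them (16.3%) reached 1000 bp. The other regions had a median of 525.5 bp (510 to 540) and quartiles of 313 and 899 bp. The medians of single-copy and other regions differed by -7.13 bp ± 39.6 on average (single-copy minus other, SD over 16 chromosomes), and single-copy regions were the wider ones on 7 chromosomes and the narrower ones on 8. A wide region holds more words that must occur once, so width is partly set by the rule. The single-copy share was lowest at both ends of the width range. It was 27.9% (25.7 to 30.1%) from 200 to below 300 bp, 35.6% (33.5 to 37.8%) from 300 to below 500 bp, 33.8% (31.96 to 35.8%) from 500 to below 1000 bp and 26.2% (23.99 to 28.6%) above that.

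The 3 widest single-copy regions were all in genes. The first, chr6:48577729-48581891, was 4163 bp wide, overlapped an exon of the non-coding transcript gene *AI854703*, and had a G+C content of 54.7%. The second, chr9:91279675-91283646, spanned 3972 bp over an exon of *Zic4*, a zinc finger transcription factor of brain development, at 45.0% G+C. The third, chr6:32444036-32447924, spanned 3889 bp over coding sequence of *Plxna4*, a plexin receptor for semaphorins, at 47.7% G+C. No 24-base word of at least 100 copies stood within 1 kb of the first or second, and 1.94% of the words beside the third had that many. *Adamts1*, a secreted metalloprotease gene, carried a region of 3486 bp over coding sequence, and *Dse*, which encodes an epimerase of dermatan sulfate, an intronic one of 3458 bp. Neither had any flanking word of 10 copies or more.

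To compare them with sequence of the same kind nearby, windows of the same width were placed 20 kb to each side of every single-copy region and kept where they met the same sequence rule and touched no listed region. Of 4560 such windows, 3103 were kept, 1415 were not single copy and 42 overlapped a listed region. At least 1 window was kept for 2009 regions, and each of these was compared with its own windows.

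Single-copy regions were richer in G+C than the sequence around them. Their median G+C content was 46.2% (45.9 to 46.4%), against 43.6% (43.3 to 43.7%) in their own 1 kb flanks and 43.6% (43.4 to 43.9%) in the windows. A region exceeded the mean of its own flanks in 71.2% of cases (69.3 to 73.0%). Region by region, G+C content was 2.66 percentage points above that of the own windows (SD over chromosomes 0.541), and it was higher on 16 of 16 chromosomes. Against the own flanks, the difference of the chromosome medians was 2.56 ± 0.434 points, again higher on all 16. The other regions had a median of 44.9% (44.7 to 45.1%), lower than the single-copy regions on 14 of 16 chromosomes, in flanks of 41.1%. The other regions also exceeded their own flanks, in 71.4% of cases, so this feature was shared by both kinds of region.

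**Figure D2:**
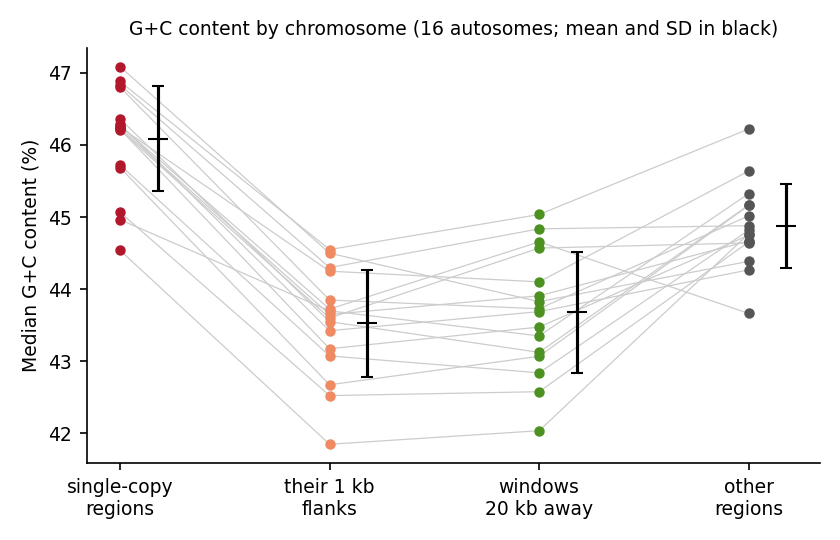
Median G+C content (%) of the single-copy regions, their 1 kb flanks, same-width windows 20 kb away and the other regions; each point is 1 of 16 chromosomes, grey lines join a chromosome, and black marks give mean and SD. Single-copy regions, at 46.1% ± 0.726, lie above their flanks, at 43.5% ± 0.739, on every chromosome.

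CpG was sparse in most of them. The median was 0.901 CpG per 100 bases (0.864 to 0.938), and the number observed over the number expected from the C and G content was 0.175 (0.170 to 0.180). The windows had 0.817 CpG per 100 bases (0.797 to 0.852) and a ratio of 0.180 (0.174 to 0.185). CpG per 100 bases was thus higher in the regions, while the ratios were close. The difference from the own windows was 0.0625 CpG per 100 bases with an SD over chromosomes of 0.0917. The regions were the higher ones on 11 of 16 chromosomes. That SD tells how single chromosomes vary and is not the error of the mean. The other regions had 0.949 CpG per 100 bases and a ratio of 0.206. Regions with at least 50% G+C and a ratio of at least 0.6, the usual bounds of a CpG island apart from its length, numbered 11 of 2280 (0.482%, 0.270 to 0.862%) among single-copy and 116 of 4954 (2.34%, 1.96 to 2.80%) among other regions, and 4 of the 11 overlapped a promoter.

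The 3 regions with the most CpG differed in width, G+C content and distance to genes, and their sequences were not compared with one another. The region chr17:39979987-39982280, 2294 bp wide, had 10.4 CpG per 100 bases, 67.8% G+C and a CpG ratio of 0.907, with flanks of 57.4% G+C. It lay 2768 bp from *AY036118*, and its nearest listed neighbour was 704 bp away. The region over the start of *Tex12*, chr9:50369128-50369721, had 7.24 CpG per 100 bases in 594 bp and 61.3% G+C, whereas its flanks had 41.1%. The third, chr2:22600267-22600526, had 6.54 CpG per 100 bases in 260 bp at 55.0% G+C and was intergenic, 10978 bp from *1700092C17Rik*. Single copy refers to mm9 alone for these regions too, and how many copies of these sequences the cells carry was not measured here.

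In the GENCODE M1 annotation of mm9, 37.7% of single-copy regions (35.8 to 39.7%, 860 of 2280) overlapped a gene, against 27.3% (26.1 to 28.5%) of the other regions. The share was higher on 16 of 16 chromosomes, by 10.9 percentage points ± 5.21 (SD). Most of the overlap was intronic, since 30.5% of single-copy regions lay in a gene without touching an exon. Exons were touched by 7.19% (6.20 to 8.33%) and coding sequence by 5.18% (4.34 to 6.16%), against 4.14% and 2.30% of the other regions. Both were higher for single-copy regions on 14 of 16 chromosomes. The rule itself asks for unrepeated sequence, and the windows, which met the same rule, are the closer comparison.

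Against all windows together, gene overlap was lower on 14 of 16 chromosomes. The windows were in genes in 43.1% of cases (41.3 to 44.8%). Region by region, the share was 3.76 points below that of the own windows with an SD over chromosomes of 4.11, and it was higher in the regions on 3 of 16 chromosomes. Gene overlap was more frequent in the widest class than in the narrowest in every set. It was 34.2% for single-copy regions from 200 to below 300 bp and 46.9% for those of 1000 bp or more, where the windows had 41.2% and 49.2% and the other regions 24.3% and 32.3%. Exons were touched by 2.97% of the narrowest and 17.8% of the widest class. Single-copy regions outside genes had a median distance of 33191 bp (29484 to 36571) to the nearest gene, and the other regions 35339.5 bp (32975 to 38108).

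**Figure D3:**
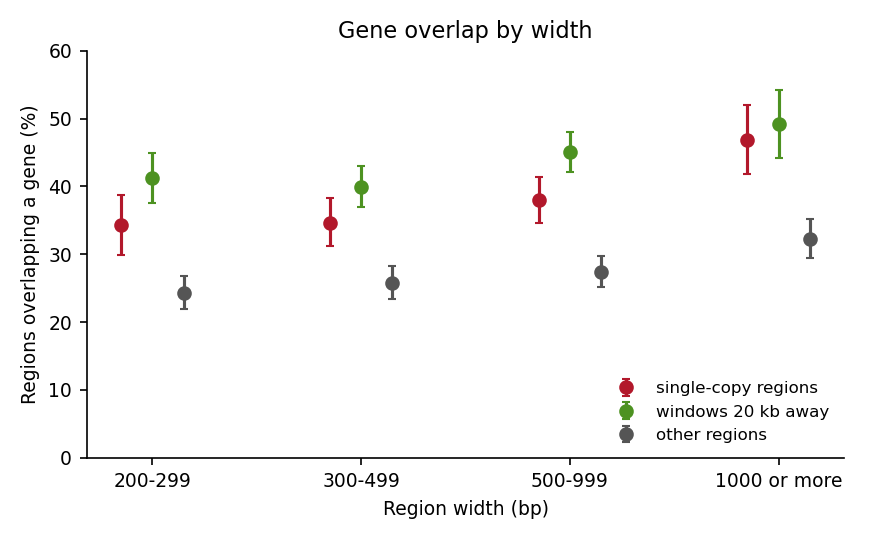
Percentage of regions that overlap an annotated gene in 4 classes of width (bp), for single-copy regions, windows 20 kb away and other regions, with 95% Wilson intervals. In each class single-copy regions lie above the other regions and below the windows, from 34.2% in the narrowest class to 46.9% in the widest.

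The single-copy regions overlapped 747 genes by name, of which 671 were protein-coding, 37 processed transcripts and 28 lincRNAs. Most were touched by 1 region, 118 by at least 2 and 23 by at least 3. *Fam19a5*, which encodes a secreted brain protein, held 5 regions of 647 to 2570 bp in 215 kb. *Fgfr2*, a fibroblast growth factor receptor, also counted 5, of 248 to 1022 bp, but its annotated span here is 3009 kb and takes in further genes, in which 4 of the 5 regions also lie. *Ephb1*, an ephrin receptor, held 4 regions of 970 to 3881 bp in 433 kb. *Erc2*, a component of the presynaptic active zone, held 4 of 319 to 1971 bp in 856 kb. *Mgmt*, a DNA repair gene, held 4 of 414 to 1432 bp in 234 kb. *1700112E06Rik*, *Ctnna3*, *Enox1* and *Pdzrn4* also held 4 each, in 1036, 1574, 565 and 375 kb. The counts were not set against gene length. The genes with several regions were picked by their counts after the values were seen.

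Promoters, here the 2 kb centred on a gene start, were rarely involved. Of the single-copy regions 3.29% (2.63 to 4.10%, 75 of 2280) overlapped one, against 2.89% (2.46 to 3.39%) of the other regions and 3.67% (3.07 to 4.40%) of the windows. The difference from the own windows was -0.299 points with an SD over chromosomes of 1.65. When only protein-coding genes were counted, 40 regions (1.75%) lay over the promoters of 41 genes, which is 0.237% of the 17332 protein-coding genes on these chromosomes. In 7 of these genes the start itself was inside the region.

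The 3 regions nearest to the start of a protein-coding gene lay at genes with known roles in germ cells. The nearest was the *Tex12* region, which held the start of this gene for a protein of the synaptonemal complex, the structure that joins paired chromosomes in meiosis. The next, chr6:145563986-145564385, held the start of *Tuba3b*, a testis alpha-tubulin, in 400 bp with 56.8% G+C. The third, chr15:88812949-88813498, held that of *Mov10l1*, a helicase of piRNA production in germ cells, in 550 bp with 58.5% G+C and a CpG ratio of 0.637. *Mov10l1* was overlapped by 3 single-copy regions in all, 332 to 573 bp wide.

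Because these 3 shared a tissue, a list of 61 genes known for germ cells, meiosis or the piRNA pathway was written. It was written after the overlapped promoters had been seen and includes genes taken from them, so its count is a description and was not tested. Of its 49 genes annotated as protein-coding on these chromosomes, 11 had a promoter overlapped by a single-copy region, where 41 of all 17332 protein-coding genes (0.237%) had one. Among the 12 genes whose starts were nearest to the centre of a region, 6 were on the list, and the next 3 after *Mov10l1*, which were *Defb23*, *1700036A12Rik* and *3110018I06Rik*, were not. The regions at the 11 listed genes were 331 to 1197 bp wide, and their median CpG ratio was 0.376, against 0.206 for the regions at the remaining 30 genes.

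*Dazl*, which encodes an RNA-binding protein of germ cells, had its start inside a region of 1197 bp, chr17:50432595-50433791, with 58.2% G+C and a CpG ratio of 0.759. *Ddx4*, the germ-cell helicase Vasa, had a region of 655 bp, chr13:113442667-113443321, that ended 149 bp upstream of its start. *Rnf17*, a tudor-domain protein of male germ cells, had one of 483 bp that ended 412 bp upstream. Only *Tex12*, *Tuba3b*, *Mov10l1* and *Dazl* of the 11 had the start inside, and the other 7 regions lay beside it.

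The region at *Sycp1*, a structural protein of the synaptonemal complex, was 331 bp wide and lay inside the gene, 673 bp from its start, with a CpG ratio of 0.808. *Tuba3a*, another testis alpha-tubulin, and *Actl7a*, a testis actin-like gene, had regions of 802 and 533 bp inside the gene, 465 and 668 bp from the start. *Adad1*, a double-stranded RNA binding protein of the testis, had one of 516 bp at 807 bp, and *Gpat2*, an acyltransferase of male germ cells, one of 503 bp at 704 bp upstream. The CpG ratios of the 11 regions ran from 0.0647 at *Gpat2* to the value at *Sycp1*.

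**Figure D4:**
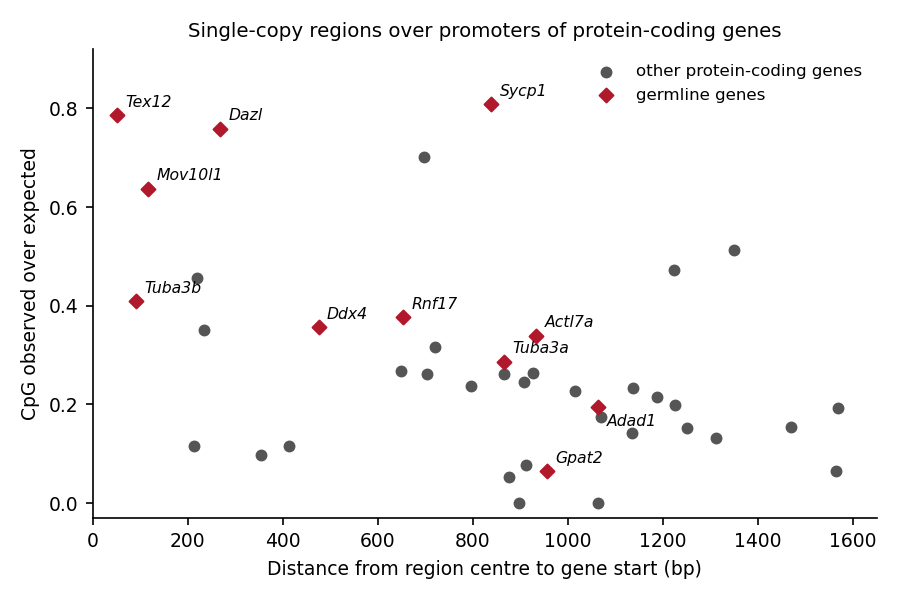
CpG observed over expected of the single-copy regions over promoters of 41 protein-coding genes, plotted against the distance (bp) from the region's centre to the gene start; the 11 genes of the germline list, written after the values were seen, are named. *Tex12*, *Mov10l1*, *Dazl* and *Sycp1* lie at ratios of 0.637 to 0.808, and *Gpat2* at 0.0647.

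The other protein-coding promoters belonged to genes of mixed kinds. *Defb23*, a beta-defensin, *Cxcl15*, a chemokine of the lung, and *Cav3*, the caveolin of muscle, had regions of 494, 839 and 417 bp with CpG ratios of 0.115, 0.115 and 0.0964. *Fv1*, a retrovirus restriction gene that itself derives from an endogenous retrovirus, was overlapped in its coding sequence by a region of 1076 bp, chr4:147243254-147244329. *Erv3*, a gene of retroviral origin too, had an intronic one of 1272 bp. Both sequences occur once in mm9 under the rule. A pair of regions on chromosome 12, chr12:110948676-110949806 and chr12:110955248-110956582, lay among the microRNA genes *Mir323*, *Mir411* and *Mir495* of an imprinted cluster. These genes were named after the values were seen.

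The gene lists gave small counts. Of 370 zinc finger genes by symbol, 14 were overlapped (3.78%, 2.27 to 6.25%), against 2.92% (2.72 to 3.14%) of all 25542 gene names. The widest such region, of 1881 bp, lay in an intron of *Zfp618*. On chromosome 18, which the rule for named regions leaves out, *Zfp35* and *Zbtb7c* had regions of 1667 and 1006 bp over coding exons. The next widest outside it were 988 bp in an intron of *Zfp462* and 732 bp in an intron of *Zfp385b*. Of 1104 olfactory receptor genes 1 was overlapped, *Olfr522*, by 831 bp over coding sequence, and of 433 vomeronasal receptor genes 1, *Vmn2r75*, by an intronic region of 267 bp. The other regions overlapped 0 and 14 genes of these families. Protocadherins were represented by *Pcdh15* and *Pcdha11*, 2 of 35.

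Among imprinted genes, which are expressed from 1 parental copy, 3 of 41 on these chromosomes were overlapped. *Snrpn*, an imprinted splicing gene, had an intronic region of 540 bp, *Kcnq1*, a potassium channel in an imprinted domain, one of 293 bp with 36.5% G+C, and *Herc3*, a ubiquitin ligase gene, one of 385 bp over coding sequence. None of 67 histone genes was overlapped, with an interval that reaches 5.42%. Of 25 genes for heterochromatin factors, such as *Setdb1*, *Trim28* and *Daxx*, 0 were overlapped, with an interval that reaches 13.3%.

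Whether single-copy regions flank repeats was asked with 24-base words in the 1 kb on each side. Words that only repeat a unit of 6 bases or fewer were left out. With them kept in, 81.7% of the regions had a word of at least 100 copies beside them. Simple repeats with a base outside the unit were not left out, so the shares below include them. A word of at least 100 copies stood beside 81.5% of the regions (79.9 to 83.1%, 1859 of 2280), and on both sides of 37.7% (35.8 to 39.7%). Such words were common around single-copy sequence in general, since 76.4% of the windows (74.9 to 77.8%) had one beside them and 29.3% (27.7 to 30.9%) on both sides. Region by region, the share with such a word exceeded that of the own windows by 4.36 points with an SD over chromosomes of 3.52, and it was higher on 15 of 16 chromosomes. With windows 10 kb away, chosen after seeing the data, the difference was 4.02 points, higher on 13 of 16 chromosomes. The SD over chromosomes was 5.52, which tells how single chromosomes vary and is not the error of the mean.

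The words of at least 100 copies made up 4.10% of all flanking words of single-copy regions and 3.14% of those of the windows. The difference from the own windows was 0.779 points (SD over chromosomes 0.649), higher on 14 of 16. At the other regions they made up 22.5%, and 94.7% of those regions (94.1 to 95.3%) had at least 1 beside them. Single-copy regions had the lower share than other regions on all 16 chromosomes, but flanks continue the sequence that the rule judged, so this contrast is partly set by the rule.

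The share of repeated words changed with the distance from the edge. Beside single-copy regions, words of at least 100 copies made up 2.24% in the first 100 bp, 4.37% from 300 to 400 bp, 4.65% from 900 to 1000 bp and 5.59% from 1800 to 1900 bp. In the windows the same steps gave 1.59%, 2.84%, 3.97% and 4.63%, so both rose outward and the single-copy regions stayed above in each of the 19 steps. Beside other regions the share fell outward from 27.1% in the first 100 bp to 20.9% and 18.6% at the same outer steps. The rule chose the kinds of region by repeated words up to the edge, so this contrast near the edge is set by it. In the first 100 bp the left side had 2.82% and the right side 1.66%. The 50-base words that start in the region reach into the right flank, so the sides are not alike under the rule.

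**Figure D5:**
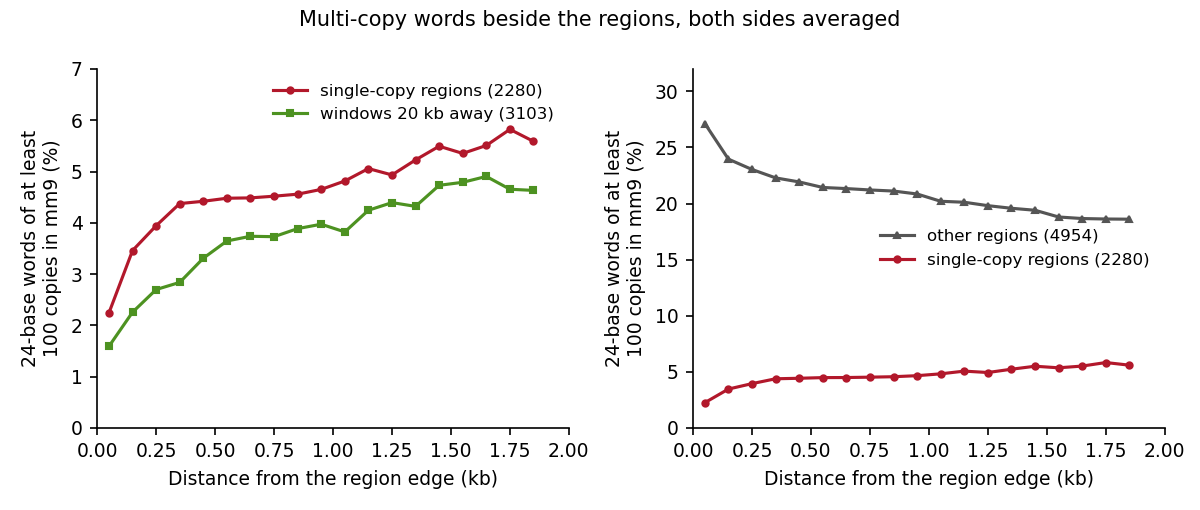
Percentage of 24-base words with at least 100 copies in mm9 by distance from the region edge (kb, steps of 100 bp, both sides averaged); left, single-copy regions and same-width windows 20 kb away, right, single-copy and other regions on a wider axis. The share rises outward from 2.24% beside single-copy regions and from 1.59% beside windows, and falls outward from 27.1% beside other regions.

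The repeated sequence was seldom at the edge itself. Where a region had a word of at least 100 copies within 1 kb, the nearest began a median of 206 bp away (183 to 221), against 278.5 bp (263 to 297) in the windows and 4 bp (3 to 6) at other regions. It stood within 100 bp in 24.8% of single-copy regions (23.1 to 26.6%), 18.6% of windows and 73.4% of other regions. On at least 1 side, such words covered 100 bases or more in 46.1% of single-copy regions (44.1 to 48.1%) and 300 bases or more in 12.8% (11.5 to 14.2%). The windows had 39.0% and 9.15%, and the other regions 77.5% and 50.7%. These measures of distance and covered bases were added after other values had been seen.

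The flanks were themselves mostly single copy. Of the 50-base words in them, 96.4% occurred once on average, and in 881 regions (38.6%, 36.7 to 40.7%) all of them did. The corresponding values for other regions were 72.1% and 9.14%. A word of 10 copies or more stood beside 89.7% of the regions (88.4 to 90.9%) and 85.7% of the windows (84.4 to 86.9%).

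Some listed regions did end at long repeats. The authors kept only reads with a unique placement, so a listed edge need not be the edge of the mark. Where the mark itself ends was not tested here. The region chr3:36405927-36407088, 1162 bp wide and 196 bp from *Gm11548*, had 82.7% of its right flanking words at 100 copies or more and 15.0% of the left. The region chr16:49454198-49454473, 276 bp wide and 156691 bp from the nearest gene, had 95.7% on the left and 0.409% on the right. In an intron of *Lrrc8b*, a subunit of volume-regulated anion channels, the region chr5:105873933-105875903 had 89.4% on the right and 5.22% on the left. In all 3 the repeated words were concentrated on 1 side, as in the edge sequences printed above.

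No single repeated word was shared by many regions. Their flanks held 77773 different words of at least 100 copies, 50473 of them beside 1 region alone and 4 beside 100 regions or more. Parts of a repeat, and copies that differ in a letter, count as different words. These counts therefore cannot tell whether the flanks share a repeat family. The 5 words found beside the most regions, taken so that no pair shared 12 bases, are shown as examples, on either strand and in capitals throughout.
word 1: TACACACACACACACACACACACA
word 2: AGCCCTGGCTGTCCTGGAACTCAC
word 3: AGAGAGAGAGAGAGAGAGAGAGAA
word 4: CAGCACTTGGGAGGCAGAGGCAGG
word 5: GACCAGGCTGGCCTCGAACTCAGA
Words 1 and 3 are simple repeats with 1 base outside the repeated unit. Words 2, 4 and 5 carry letters known from the B1 family of short interspersed elements, a common mouse repeat, though no repeat annotation was used here.

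Word 1, with 91576 copies in mm9, stood beside 169 single-copy regions (7.41%), 7.93% of windows and 4.74% of other regions. Word 2, with 54839 copies, stood beside 106 single-copy regions (4.65%), 3.71% of windows and 3.43% of other regions. Words 3, 4 and 5 stood beside 4.30%, 4.17% and 4.12% of single-copy regions, 3.54%, 2.84% and 3.51% of windows and 2.60%, 2.52% and 2.54% of other regions. Since the words were picked for their number beside single-copy regions, these shares are a description.

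Inside the regions, short words of several copies were more frequent than in the windows that met the same rule. A 24-base word of at least 10 copies was present in 55.0% of single-copy regions (53.0 to 57.1%) and in 33.4% of windows (31.7 to 35.0%). Region by region the difference was 20.0 points with an SD over chromosomes of 5.14, and it was higher on 16 of 16 chromosomes. With at least 100 copies, the shares were 34.6% (32.6 to 36.5%) and 20.5% (19.08 to 21.9%), higher by 12.7 points (SD 5.44) on 15 of 16. With at least 1000 copies they were 15.2% (13.8 to 16.7%) and 11.2% (10.2 to 12.4%), not compared region by region. Words of at least 1000 copies made up 0.173% of the inner words in regions and 0.156% in windows, so these means were close.

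The difference was largest in the narrowest class. In the class from 200 to below 300 bp, 49.8% of single-copy regions and 22.5% of windows held a word of at least 10 copies, and in that of 1000 bp or more, 59.6% and 55.9%. Such words were a small part of the sequence, on average 2.88% of the inner words in regions and 1.28% in windows at 10 copies. In the other regions, where the rule required repeated words, they were 50.5%. Which repeat families these short matches belong to was not analysed here.

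Motifs known from ATRX biology were counted in single-copy and other regions but not in the windows. Whether their shares exceed the level of nearby sequence, or of sequence in general, is therefore not known. TTAGGG, the telomere hexamer, was found on either strand in 23.0% (21.3 to 24.8%) of single-copy and 22.8% (21.6 to 23.98%) of other regions, and was the more frequent in single-copy regions on 8 of 16 chromosomes. A G-quadruplex pattern, 4 runs of at least 3 G with 1 to 7 bases between them on either strand, was found in 6.49% (5.55 to 7.58%) and 8.34% (7.60 to 9.14%), lower in single-copy regions on 13 of 16 chromosomes. A match is a description of the letters, not a site of binding.

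Single-copy regions had listed neighbours about as often as the others. Another listed region lay within 1 kb of 4.61% (3.82 to 5.54%) of them and of 4.54% (4.00 to 5.16%) of other regions, and within 10 kb of 19.5% and 18.3%. The closest pairs were 641 bp apart at chr10:80825364-80827324, over coding sequence of *F630110N24Rik* and *4930404N11Rik*, 642 bp at chr16:55786536-55788261 and 643 bp at chr17:76167849-76168251. The nearest genes of the latter pair of regions were a *U6* gene and *Fam98a*. The 105 regions with a neighbour within 1 kb had 106 gaps beside them, 38 to another single-copy region, 36 to an other region and 32 to a listed region under 200 bp. In 46.2% of these gaps (37.0 to 55.7%) at least 1 word of 50 bases did not occur once, and on average 5.94% of a gap's words did not.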

How the data were processed

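H3K9me3, H3, IgG and input libraries of WT and *Atrx* KO ESCs were sequenced as 50-bp single-end reads. Per the methods and the submitters' notes, the authors used Bowtie2 on mm9 (at most 2 mismatches, unique placements), MACS2 in broad mode with input as control, and then compared WT with KO peaks. Despite the unique placements, 531 of the other regions held no 50-base word that occurred once. Which reads lie behind those regions is not known here. How replicates were joined is not given in the sources used here. The authors deposited 1 pooled list with start and end in bp (3 columns, 0 with values of single libraries), so depth per region is unknown.

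Here, exact copies of each 50-, 36- and 24-base word were counted throughout the mm9 assembly, and genes were those of GENCODE M1. The counting was tested on simulated sequence, with 0 of 25902 words wrong. Starts were read as counted from 0 and are printed counted from 1. Shares have 95% Wilson intervals, medians exact binomial ones, and no test was run. Named regions are the 3 widest, the 3 nearest to a protein-coding gene start, the 3 with most flanking words of at least 100 copies, the 3 widest without flanking words of 10 copies, the 3 with most CpG and the 3 nearest to another listed region, none on chromosome 18. Of overlapped list genes all were named up to 10, otherwise those of the 3 widest regions. Members, lists and measures were chosen with earlier results of these data known. Alternatives changed word length, width, gene set, promoter size, flank and copy limits. Counting ran in numba 0.67.0, intervals in scipy 1.17.1, tables in numpy 2.4.6 and plots in matplotlib 3.10.9, under Python 3.11.15.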

Additional observations from a re-analysis of the deposited data

How the results depend on the processing

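The list carries no library values, so leaving out replicates gave nothing to compute. No paired analysis was possible because the results come from 1 pooled list and no test. The number of single-copy regions was 1450 with words of 36 bases and 3459 when at least 90% of the words had to occur once. It stayed within 1.5 times 2280 with words wholly inside, a width of at least 300 bp, starts counted from 1, or, added after seeing the data, copies on the named chromosomes only. With protein-coding genes only, 35.1% of regions were in a gene and 1.75% over a promoter, and with promoters reaching 2 kb to both sides of a start 4.91% were. The median width was 573 bp with 90% of words and 602.5 bp at 300 bp or wider, and the median G+C content was 45.8% at 300 bp or wider and 45.5% in the central 200 bp. The share of regions with a flanking word of at least 100 copies became 89.7% at 10 copies, 68.9% at 1000 copies, 63.0% in 500 bp, 94.3% in 2 kb and 77.8% with regions chosen by words of 36 bases. Under the first 4 of these settings the share of flanking words was 6.63%, 2.37%, 3.65% and 4.71%, against 5.02%, 1.80%, 2.49% and 3.84% in the windows. The other 8 values stayed within the intervals of the main ones. With windows 10 kb away, also added later, the difference in the share with a flanking word of at least 100 copies was 4.02 points (SD over chromosomes 5.52), that in G+C content 2.41 points, that in inner words of 10 copies 18.05 points, and that in gene overlap -2.25 points with an SD over chromosomes of 2.29.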

Other observations

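The rule left out chromosomes 1, 8, 11, X and Y. There, single-copy regions were 37.7%, 46.8% and 45.0% of the listed regions of 200 bp or more on chromosomes 1, 8 and 11 (95% Wilson intervals 34.5 to 40.9%, 43.0 to 50.7% and 41.4 to 48.7%). Chromosome 14, with 38.9%, had the highest share among the 16 chromosomes described above. On chromosome X they were 30 of 834 regions (3.597%, 2.53 to 5.09%), the lowest share of any chromosome, although 1040 regions were listed there. On chromosome Y they were 19 of 145 (13.1%, 8.55 to 19.6%). Per megabase of sequenced DNA, single-copy regions numbered 1.71, 2.40 and 2.74 on chromosomes 1, 8 and 11. On chromosome X there were 0.185, and on chromosome Y 7.03, the highest of all. The value for chromosome Y rests on 19 regions and on the bases known in mm9, and copies that the assembly lacks were not counted.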
